A study of Bos taurus with 6 samples.

Results

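Red cell miRNAs were followed in extracellular vesicles (EVs), the membrane-bound particles that cells release, isolated from bovine serum. The 3 miRNAs are bta-miR-451, bta-miR-144 and bta-miR-486, chosen by name for their known link to red blood cells, and they are 3 of the 359 known miRNAs and of the 706 known and newly predicted miRNAs in the deposited count table. The serum came from 6 female Holstein cows in mid lactation, sampled on day 30, with 1 small RNA library per cow. The control group (3 cows) was fed a total mixed ration. In the ration of the tested group (3 cows), whole cotton seed and soybean hull took the place of part of the alfalfa hay. Corn silage was also lower in the tested ration, per the study's feed formula. Serum was taken from blood collected without anticoagulant, and EVs were bound to a membrane affinity column, so the libraries hold RNA from vesicles of mixed cell origin, and no blood cell fraction was sequenced.

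In red cell precursors, miR-144 and miR-451 are cut from a shared primary transcript that the factor GATA1 switches on, and miR-451 is the known exception that is matured by the slicer Argonaute 2 instead of Dicer. MiR-451 restrains the signalling adaptor 14-3-3 zeta, and miR-144 targets NRF2, a regulator of the response to oxidative stress. MiR-486 is encoded within the gene of ankyrin 1, which ties the red cell membrane to its spectrin skeleton, and it is also abundant in muscle. Mature red cells keep large amounts of these miRNAs, and the ratio of miR-451 to miR-23a, a miRNA that red cells hold little of, is in common use as a sign of red cell lysis in serum.

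The listed sequences show how close the 3 miRNAs are to each other and to others, but counting of reads across them was not tested. They are the authors' deposited sequences, 5′ to 3′ in DNA letters, with the seed (bases 2 to 8, the part that pairs with targets) in capitals.
bta-miR-451: aAACCGTTaccattactgagttt
bta-miR-144: tACAGTATagatgatgtactag
bta-miR-486: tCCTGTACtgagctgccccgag
The 3 seeds differ from each other, and none of the other 705 listed sequences has the seed of any of them or lies inside or around one of them. Between 10 and 16 edits separate the 3 sequences, aligned over their full lengths. The nearest other sequence was sought with the shorter of each pair placed within the longer, the overhang of the longer not counted. By that count, which is not comparable with the full-length one, it was 7 edits away for bta-miR-451, 6 for bta-miR-144 and 5 for bta-miR-486. For bta-miR-144 that neighbour was bta-miR-101, the only listed miRNA with the same bases 2 to 7.
bta-miR-101: tACAGTACtgtgataactgaa
The GC content was 34.8% in bta-miR-451, 31.8% in bta-miR-144 and 63.6% in bta-miR-486, against a median of 45.8% over the known miRNAs. In the RefSeq annotation of assembly ARS-UCD2.0, MIR451 and MIR144 lie within 10 kb of each other on chromosome 19, next to ERAL1, and MIR486 lies inside ANK1 on chromosome 27. Reads were matched to the older assembly ARS-UCD1.2, so only names and neighbours were taken from this annotation.

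Levels are given as the share of all known miRNA counts of the library, which were between 1226928 and 2088249. Together the 3 miRNAs made up 2.84%, 1.63% and 1.35% under the control ration and 5.96%, 1.08% and 0.862% under the tested ration. Tested cow 1 was the highest of all 6 cows and the remaining tested cows the lowest, so that the tested group lay on both sides of the control group. The share varied 2.11-fold within the control group and 6.91-fold within the tested group. More vesicles from a cell type and more of a miRNA per vesicle cannot be told apart in these libraries.

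Of the 3, bta-miR-486 was the most frequent, with 70.0% to 80.1% of their summed counts. Its share of the known miRNA counts was 2.10%, 1.204% and 1.02% under the control ration and 4.17%, 0.782% and 0.691% under the tested ration. This placed it at rank 7 in tested cow 1 and at ranks 14 to 27 in the other cows.

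For bta-miR-451, the Dicer-independent miRNA, the share was 0.717%, 0.414% and 0.317% under the control ration and 1.73%, 0.292% and 0.169% under the tested ration. The order of the cows was the same as for bta-miR-486. The distance between the highest and the lowest cow was 10.3-fold, against 6.04-fold for bta-miR-486.

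Although it comes from the same primary transcript as miR-451, bta-miR-144 was counted far less often, with 379, 229 and 144 counts under the control ration and 653, 188 and 49 counts under the tested ration. As shares these were 0.0247%, 0.0114% and 0.00723% under the control ration and 0.0532%, 0.010003% and 0.00235% under the tested ration. The highest and the lowest cow were the same as for the other two, and they differed 22.7-fold. Levels of different miRNAs are compared here as counts, which also carry differences in ligation and amplification between sequences.

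Counting error was small beside these differences. Of the 15 pairs of libraries, 95% exact binomial intervals of the share overlapped in 0 pairs for bta-miR-451 and bta-miR-486 and in 1 pair for bta-miR-144, control cow 2 and tested cow 2. PCR copies of a molecule are counted as separate reads, so these intervals cover counting error only.

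**Figure D1:**
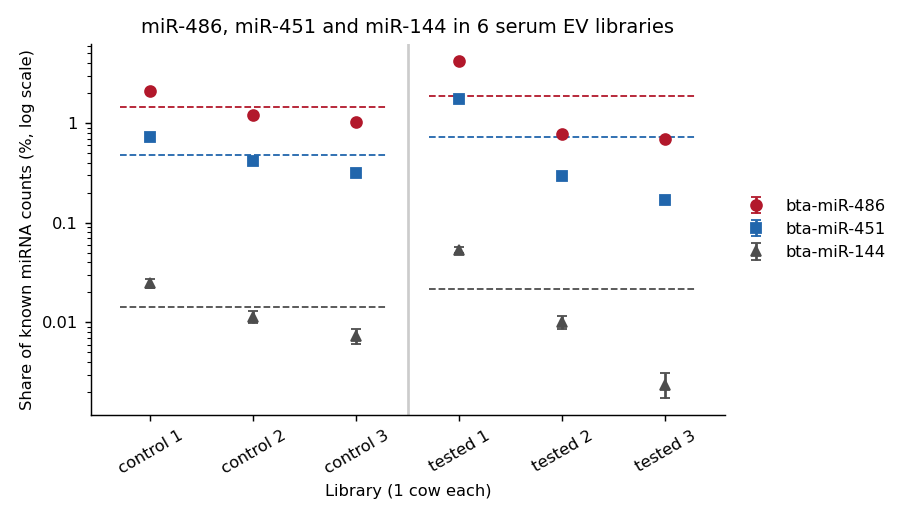
Share of known miRNA counts (percent, log scale) of bta-miR-486 (circles), bta-miR-451 (squares) and bta-miR-144 (triangles) in each of the 6 libraries. Bars are 95% exact binomial intervals, which cover counting error only, and dashed lines are group means. Tested cow 1 is the highest for each of the 3 miRNAs and tested cow 3 the lowest.

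The spread between cows fed the same diet was wider in the tested than in the control group for these miRNAs. Among the 107 known miRNAs with a mean share of at least 0.01%, the SD within groups of log2(CPM + 1), where CPM is the deposited count scaled to library size with edgeR's TMM factors, was 1.71 for bta-miR-144, 1.32 for bta-miR-451 and 1.09 for bta-miR-486. They stood at ranks 3, 6 and 8 by this SD, and the median over the other 104 miRNAs was 0.27. Most of this spread lay in the tested group. The SD among the control cows alone was 0.80 for bta-miR-144, 0.51 for bta-miR-451 and 0.46 for bta-miR-486 (ranks 7, 24 and 28), against 2.28, 1.79 and 1.47 among the tested cows. Without tested cow 1 the SD within groups was 1.13, 0.59 and 0.41, at ranks 4, 18 and 32, with a median of 0.26 over the others.

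Depth ran alongside the shares in part. Tested cow 1 and control cow 1, the highest by share, had the fewest known miRNA counts (1226928 and 1537256), and tested cow 3, the lowest, had the most (2088249). By contrast, known miRNAs made up 8.50% of the clean reads in tested cow 1 and 8.63% in tested cow 3, the lowest values among the 6 libraries. The study also lists RNA concentration and miRNA content for each cow, with the lowest miRNA content in tested cow 3. The part of depth or of RNA quality in the shares was not tested.

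The first question was whether the 3 miRNAs rise and fall together. Over the 6 libraries the log2 shares of bta-miR-451 and bta-miR-486 had a Pearson's r of 0.987 (exact permutation test, p = 0.00139, the smallest that 6 libraries can give) and a Spearman's rho of 1 (exact permutation test, p = 0.00278). For bta-miR-451 and bta-miR-144, r was 0.968 (exact permutation test, p = 0.00278) and rho was 0.943 (exact permutation test, p = 0.0167). For bta-miR-144 and bta-miR-486, r was 0.921 (exact permutation test, p = 0.00694) and rho was 0.943 (exact permutation test, p = 0.0167). Adjusted over the 3 pairs by the method of Benjamini and Hochberg, the p-values of r were 0.00417, 0.00417 and 0.00694, and those of rho were 0.00833, 0.0167 and 0.0167.

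Tested cow 1 and tested cow 3 were farthest from the median in all 3 pairs. Without them r over the 4 remaining libraries was 0.983 for bta-miR-451 and bta-miR-486 (exact permutation test, p = 0.0417, the smallest that 4 libraries can give). It was 0.940 for bta-miR-451 and bta-miR-144 (exact permutation test, p = 0.0833) and 0.863 for bta-miR-144 and bta-miR-486 (exact permutation test, p = 0.208). The last pair also lost its call without tested cow 1 alone, with r of 0.852 (exact permutation test, p = 0.0917), and kept it without tested cow 3 alone, with r of 0.958 (exact permutation test, p = 0.025). The shares are taken of a common total in each library, and with the 3 miRNAs left out of that total r was 0.987, 0.969 and 0.924 for the pairs in the order above.

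**Figure D2:**
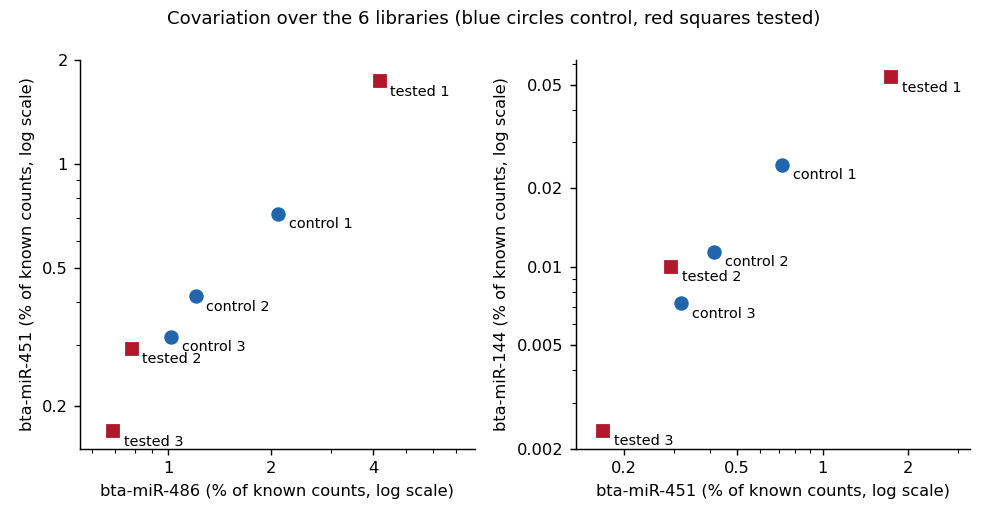
Share of known miRNA counts in each library (percent, both axes on log scales), bta-miR-451 against bta-miR-486 on the left and bta-miR-144 against bta-miR-451 on the right. Circles are control cows and squares are tested cows. The 6 cows lie along a line from tested cow 3 to tested cow 1, with r of 0.987 and 0.968 on the log2 scale.

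The next question was whether the balance among the 3 miRNAs stayed the same, and ratios within a library are free of any scaling. Per 100 counts of bta-miR-486 there were 34.1, 34.4 and 31.0 counts of bta-miR-451 under the control ration and 41.5, 37.4 and 24.4 under the tested ration. The control cows were close together, at 1.11-fold, while tested cows 1 and 2 were above and tested cow 3 was below all of them. Tested and control cows differed by 0.02 in the mean log2 ratio (exact permutation test, p = 1).

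Per 100 counts of bta-miR-451 there were 3.44, 2.75 and 2.28 counts of bta-miR-144 under the control ration and 3.07, 3.42 and 1.39 under the tested ration. Only tested cow 3 lay outside the control range. There the 95% counting interval of 1.03 to 1.84 was below that of each other cow, the nearest being 1.92 to 2.69 in control cow 3. The log2 ratio differed by -0.19 between the tested and the control group (exact permutation test, p = 0.8).

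Relative to bta-miR-486, bta-miR-144 had 1.17, 0.947 and 0.707 counts per 100 under the control ration and 1.28, 1.28 and 0.340 under the tested ration. Here too tested cows 1 and 2 were above and tested cow 3 was below all control cows. The log2 ratio differed by -0.17 (exact permutation test, p = 1), while the mean of the linear ratio was higher in the tested group. In tested cow 3, where all 3 miRNAs were lowest, bta-miR-486 made up 80.1% of their summed counts, against 70.0% to 75.9% in the other cows. As a description over the 6 libraries, the log2 share of bta-miR-144 went up by 1.27 for each step of 1 in that of bta-miR-451.

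Set against bta-miR-23a, the reference of the lysis ratio, bta-miR-451 had 2.94, 1.70 and 2.76 counts per count of bta-miR-23a under the control ration and 7.14, 1.19 and 0.681 under the tested ration. For bta-miR-486 this ratio was 8.63, 4.93 and 8.92 under the control ration and 17.2, 3.17 and 2.79 under the tested ration. Tested cow 1 was again above all control cows, and the other tested cows were below all of them. The reference itself was at 0.244%, 0.244% and 0.115% of the known counts under the control ration and at 0.243% to 0.248% under the tested ration, so that its low value in control cow 3 raises the ratios there. In log2 the ratios differed by -0.42 for bta-miR-451 and -0.44 for bta-miR-486 between the tested and the control group (exact permutation tests, p = 0.8 for both), while the means of the linear ratios went the other way, at 2.47 ± 0.674 and 3.00 ± 3.59 (SD, n = 3 each) for bta-miR-451. Over the 5 ratios all adjusted p-values were 1, and 3 cows against 3 cannot give a p below 0.1. Limits used for this ratio in other assays do not carry over to counts, and none was applied.

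**Figure D3:**
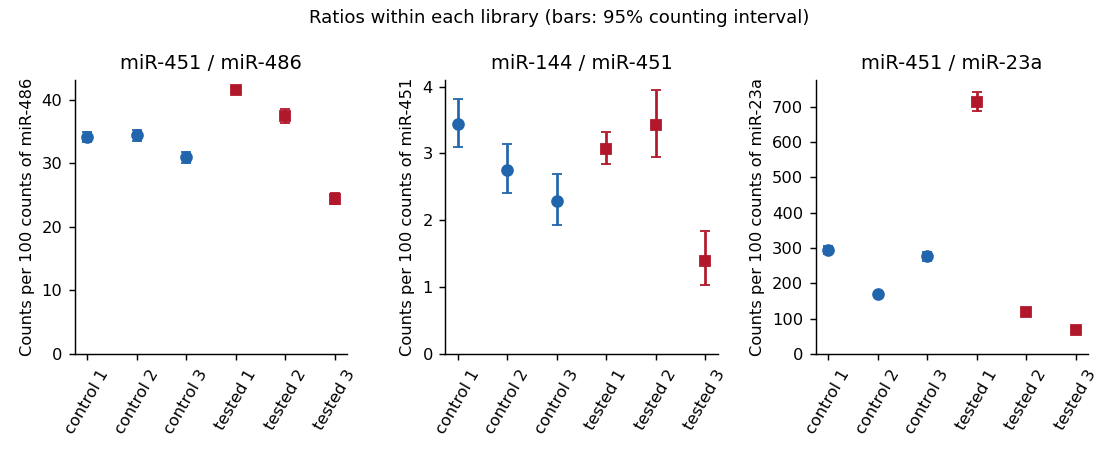
Counts of bta-miR-451 per 100 counts of bta-miR-486 (left), of bta-miR-144 per 100 of bta-miR-451 (middle) and of bta-miR-451 per 100 of bta-miR-23a (right) in each library, control cows as circles and tested cows as squares. Bars are 95% exact binomial intervals for counting error, and each axis starts at 0. Tested cow 3 is the lowest in each panel, and tested cow 1 is the highest in the left and right panels.

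The diet comparison asked whether the tested ration changed these miRNAs, with edgeR's quasi-likelihood F test on the counts of 623 miRNAs in one fit. For bta-miR-451 the mean share in the control group, 0.483% ± 0.209 (SD, n = 3), stood beside 0.732% ± 0.870 (SD, n = 3) under the tested ration. They were 0.0144% ± 0.00910 and 0.0219% ± 0.0274 (SD, n = 3 each) for bta-miR-144, and 1.44% ± 0.578 and 1.88% ± 1.99 (SD, n = 3 each) for bta-miR-486. The tested group had the higher mean and the lower median for each of the 3. The difference in means was smaller than the SD of the tested group for each of the 3, while for bta-miR-451 it was 0.249 percentage points, above the control SD of 0.209.

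For bta-miR-451 the log2 fold change of tested over control was 0.58 (standard error 0.628), with a 95% interval of -0.78 to 1.94 (adjusted p = 0.823 from edgeR). It was 0.59 for bta-miR-144, with an interval of -1.32 to 2.51, and 0.35 for bta-miR-486, with an interval of -0.79 to 1.498 (adjusted p = 0.881 from edgeR for both). A miRNA was called where its unadjusted p was below 0.05 and its log2 fold change above 1 or below -1. None of the 3 was called (0 of 3 by edgeR, where 3.21% of the 623 miRNAs were). DESeq2 and limma called 0 of 3 as well, and 26 and 34 of the 623 miRNAs. The unadjusted p was below 0.05 for 0 of 3 with each tool, against 4.65% of all miRNAs with edgeR. Of the 623 miRNAs, 30 had such a p with DESeq2 and 34 with limma. The groups overlapped for each of the 3, where they did not overlap for 10.8% of all miRNAs tested. For the summed share the exact permutation test gave p = 1. These intervals still hold changes of more than 2-fold in both directions for bta-miR-144, and of more than 2-fold upward for the other 2. On the log scale, where a single high cow counts for less, the direction turned, with limma log2 differences of -0.10 for bta-miR-451, -0.28 for bta-miR-144 and -0.13 for bta-miR-486.

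The direction turned on a single cow. Without tested cow 1, the edgeR log2 fold change was -1.08 for bta-miR-451 (standard error 0.333, unadjusted p of 0.00439, adjusted p = 0.333). It was -1.01 for bta-miR-486 (standard error 0.249, unadjusted p of 0.000695, adjusted p = 0.0844) and -1.19 for bta-miR-144 (standard error 0.849, adjusted p = 0.596). In that fit bta-miR-451 and bta-miR-486 passed the threshold, which 2.80% of 607 miRNAs did, 1.15% of them downward. In CPM both remaining tested cows were below all control cows for 2 of the 3 miRNAs, which held for 6.59% of all miRNAs in the fit. Each library was left out in turn, but tested cow 1 is read here because it was highest for these same miRNAs. The fall without it thus follows in part from that choice, which the shares over all miRNAs do not carry. Without tested cow 3, the lowest cow, the log2 fold change of bta-miR-451 was 1.06 and passed upward (unadjusted p of 0.0333, adjusted p = 0.722 from edgeR), in a fit where 3.80% of 579 miRNAs passed. Without control cow 1 that of bta-miR-451 was 0.91 and did not pass (unadjusted p of 0.0435, adjusted p = 0.618 from edgeR). In that last fit 32 of 597 miRNAs had an unadjusted p below 0.05. The summed share differed by -0.967 percentage points without tested cow 1 (exact permutation test, p = 0.2, where 3 cows against 2 cannot go below 0.1).

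**Figure D4:**
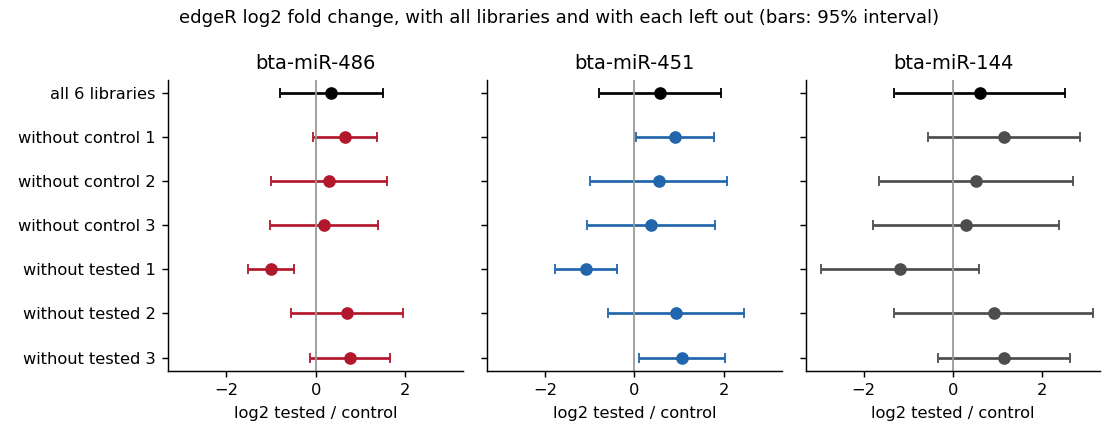
Log2 fold change of tested over control from edgeR for each of the 3 miRNAs, with all 6 libraries (top, black) and with each library left out in turn. Bars are 95% intervals and the vertical line marks no difference. In these edgeR fits the values are above 0 wherever tested cow 1 is included and are -1.01, -1.08 and -1.19 without it.

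Other miRNAs known to be abundant in red cells were described from a list of 14. Of these, 13 had enough counts to be tested, and 0 passed the threshold with edgeR, DESeq2 or limma, which 3.21% of the 623 miRNAs did with edgeR, 26 of them with DESeq2 and 34 with limma. Their median log2 fold change was 0.03, against 0.07 over all 623 miRNAs. The unadjusted p was below 0.05 in edgeR for 1 of them, bta-miR-92a, a miRNA of the MIR17HG cluster, with a log2 fold change of -0.47 (unadjusted p of 0.0287, adjusted p = 0.448), where 4.65% of all miRNAs had such a p, and for 0 with DESeq2 or limma. Without tested cow 1 such a p was found for 2 of 13 and for 3.62% of all miRNAs in that fit. These were bta-miR-92a, with a log2 fold change of -0.67 (adjusted p = 0.333 from edgeR), and bta-miR-484, with -0.75 (adjusted p = 0.596 from edgeR) against -0.27 with all cows, and neither passed the threshold on fold change. As a summed share the list held 2.20% to 2.30% under the control ration and 1.68% to 2.22% under the tested ration, with tested cow 2 as the lowest. Over the same libraries the summed share of bta-miR-451, bta-miR-144 and bta-miR-486 spanned 6.91-fold.

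Likeness was measured as r of log2(CPM + 1) with the mean of the 3 miRNAs over the 6 libraries, and it is a description across libraries that share their totals. The median r of the tested members of the list was 0.26, and it was 0.02 over the 104 other known miRNAs with a mean share of at least 0.01%. Some of the tested list members lie below that share, so the medians cover unlike sets. Within the list r was highest for bta-miR-484, at 0.855 (0.770 without tested cow 1), and lowest for bta-miR-93, at -0.698. The share of bta-miR-92a was 1.25%, 1.31% and 1.46% under the control ration and 1.26%, 0.779% and 1.01% under the tested ration (r of 0.387). In tested cow 1, where bta-miR-451 was highest, bta-miR-92a was thus within the control range. For bta-miR-25, which shares the seed family of miR-92a, the share lay between 0.118% and 0.141% in all cows (r of 0.746, and 0.398 without tested cow 1). The miR-16 genes were rare, with 48 to 252 counts for bta-miR-16a and 40 to 153 counts for bta-miR-16b. They went opposite ways, with r of -0.648 for bta-miR-16a, which was lowest in tested cow 1, and of 0.685 for bta-miR-16b, which was lowest in tested cow 3. Of the remaining members, bta-miR-363 had 59 counts in tested cow 1 and 8 to 21 in the others (r of 0.653), bta-miR-210 had 40 counts in control cow 1 and at most 1 in the others (r of 0.440), and bta-miR-15a had at most 2 in any. The values of r were -0.329, -0.156 and -0.179 for bta-miR-182, bta-miR-183 and bta-miR-96, which form a cluster, 0.103 for bta-miR-106b and 0.262 for bta-miR-185. Without tested cow 1 the sign turned for bta-miR-185 (-0.202), bta-miR-182 (0.047) and bta-miR-183 (0.244).

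The known miRNAs most like the 3 by this measure were bta-miR-122 (r of 0.982), bta-miR-150 (0.963), bta-miR-10a (0.963), bta-miR-192 (0.956) and bta-miR-10b (0.924). These are the only 5 of the 104 with r above 0.9. Their sequences are shown because a likeness in level could come with a likeness in sequence.
bta-miR-122: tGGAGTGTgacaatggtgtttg
bta-miR-150: tCTCCCAAcccttgtaccagtgt
bta-miR-10a: tACCCTGTagatccgaatttgtg
bta-miR-192: cTGACCTAtgaattgacagccag
bta-miR-10b: tACCCTGTagaaccgaatttgtg
None has the seed of bta-miR-451, bta-miR-144 or bta-miR-486, and each is at least 10 edits from all 3, aligned over full lengths. The pair bta-miR-10a and bta-miR-10b share a seed with each other. The GC content of the 5 was between 43.5% and 52.2%.

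Liver cells are the main source of miR-122. The share of bta-miR-122 was 0.0462%, 0.0252% and 0.0182% under the control ration and 0.0598%, 0.0200% and 0.0150% under the tested ration, a 3.99-fold range. Lymphocytes are rich in miR-150. The share of bta-miR-150 was 0.0206%, 0.0119% and 0.00648% under the control ration and 0.0326%, 0.0113% and 0.00522% under the tested ration, a 6.25-fold range. As for bta-miR-451, tested cow 1 was highest, control cow 1 second and tested cow 3 lowest for both. Both were picked by r over these same libraries, so a like order follows in part from that choice. In CPM, 7 of the 104 other known miRNAs were highest in tested cow 1 and lowest in tested cow 3. In share, the HOX cluster miRNA bta-miR-10a spanned 4.13-fold, its relative bta-miR-10b 3.90-fold, and bta-miR-192, another miRNA of liver and gut, only 1.60-fold. The values of r rest on CPM instead, and the scales can differ. By share bta-miR-192 was lowest in control cow 3 (0.0844%), by CPM in tested cow 3. Without tested cow 1, r with the mean of the 3 miRNAs was 0.969 for bta-miR-122, 0.930 for bta-miR-150, 0.943 for bta-miR-10a, 0.921 for bta-miR-192 and 0.804 for bta-miR-10b.

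**Figure D5:**
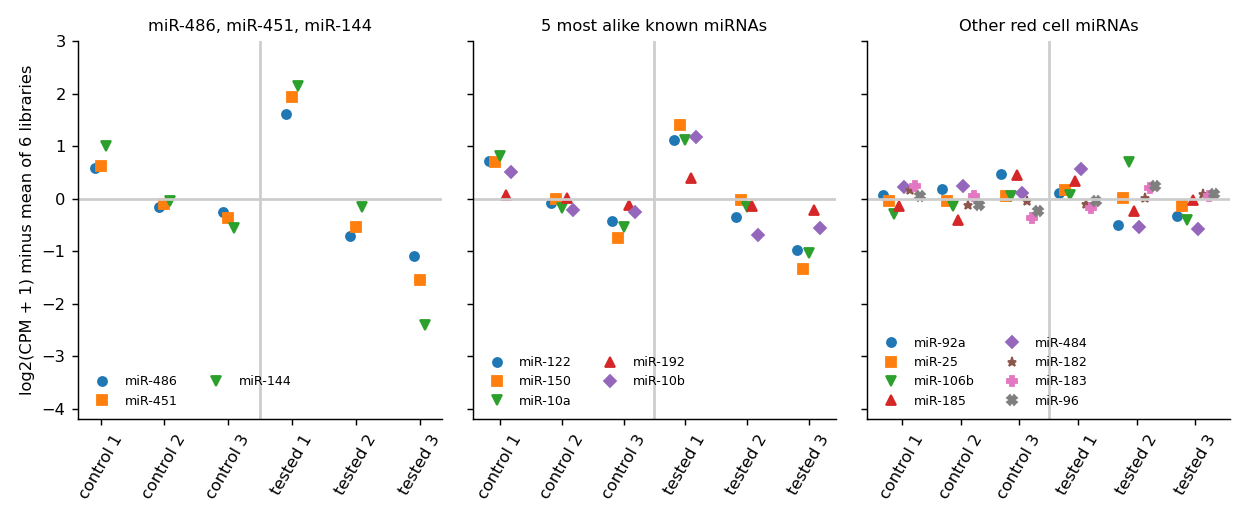
Log2(CPM + 1) of each miRNA in each library minus its mean over the 6 libraries, for the 3 red cell miRNAs (left), the 5 known miRNAs most like them (middle) and the 8 miRNAs of the red cell list with a mean share of at least 0.01% (right). Each symbol is a miRNA and the grey vertical line parts control from tested cows. Each symbol on the left and in the middle is highest in tested cow 1, and the 5 in the middle were picked by r over these same libraries. The range over the 6 libraries is 0.62 for bta-miR-192 in the middle panel, less than the 1.141 of bta-miR-484, 1.10 of bta-miR-106b, 0.97 of bta-miR-92a and 0.86 of bta-miR-185 in the right panel.

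Marker lists of other cell types were read beside the 3 miRNAs. Of the 5 white cell miRNAs listed, 4 were in the table, none at 0 in any library. Their summed share was 0.0196% to 0.0386% under the control ration and 0.0124% to 0.0439% under the tested ration, highest in tested cow 1 and lowest in tested cow 3. Within this list bta-miR-150 and bta-miR-142-5p had r of 0.963 and 0.919, whereas bta-miR-155 and bta-miR-223, a miRNA of neutrophils and other myeloid cells, had 0.05 and -0.18. The 3 liver miRNAs summed to 0.107% to 0.159% under the control ration and 0.113% to 0.202% under the tested ration, again highest in tested cow 1, while bta-miR-194 had r of -0.161. The 7 platelet and vessel miRNAs summed to 0.0279% to 0.0679% and 0.0720% to 0.0850%, with bta-miR-214 at 0 in 1 library, tested cow 3, and the other members above 0 in each. The 7 of 8 listed epithelial miRNAs in the table summed to 7.79% to 9.33% and 9.04% to 9.75%. By edgeR, bta-miR-199a-3p of the platelet and vessel list was the only miRNA of these 4 lists to pass the threshold, with a log2 fold change of 2.66 (adjusted p = 0.448). That was 1 of the 7 tested miRNAs of its list and 0 of 4 white cell, 0 of 3 liver and 0 of 7 epithelial miRNAs, against 3.21% of all miRNAs. Without tested cow 1 its log2 fold change was 1.46 and the call was lost (adjusted p = 0.849 from edgeR). DESeq2 called bta-miR-126-5p as well, 2 of 7 in that list and 0 in the others, where it called 26 of 623 miRNAs in all. Limma called 0 in each of the 4 lists and 34 of 623 in all. The part of these other sources in the range of the 3 miRNAs was not tested.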

How the data were processed

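Small RNAs of serum EVs were sequenced from 6 cows, 3 per group. Per the study's methods, the authors trimmed and cleaned the reads, aligned them to assembly ARS-UCD1.2, removed other kinds of RNA, identified known miRNAs through miRBase and predicted further ones with miRDeep2, and the submitters' processing notes name cutadapt 1.14 and Bowtie. The counting tool is not given in the sources used here. The authors deposited whole-number counts without normalization, and RPM values that equal the deposited count divided by 1 number per library, its clean reads. Columns with the authors' own fold changes and p-values, and their list of called miRNAs, were not used.

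The 3 miRNAs and the marker lists were chosen with earlier results of these data known. Total counts per library were 1277693 to 2176002. Counts of the 623 miRNAs that summed to at least 10 were compared with edgeR 4.0.16 in R 4.3.3 (TMM, glmQLFit, glmQLFTest), with Benjamini-Hochberg adjustment over all of them. The standard error is the log2 fold change over the root of F. Shares and ratios were compared by two-sided exact permutation tests (Python 3.11.15, SciPy 1.17.1), and edit distances by edlib. Alternatives were limma 3.58.1 (log2 of CPM + 1), DESeq2 1.42.0, library sizes without factors or with RLE factors, no filter, filterByExpr, known miRNAs only, the replicate number as a block, other totals and scales, and each library left out. The scripts were tested on simulated counts. Named are the 3 miRNAs, bta-miR-23a, the measured red cell list, called, highest and lowest members of the other lists, the 5 known miRNAs most alike, sequence relatives and neighbouring miRNA genes. Outside this rule, bta-miR-101, bta-miR-126-5p, bta-miR-142-5p, bta-miR-155, bta-miR-194, bta-miR-214 and bta-miR-223 were named after their values were seen. Listed miRNAs absent from the count table, bta-miR-142-3p and bta-miR-203, were not analysed here. The correlation with group means removed and the SD per group and without each library were added after the data were seen.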

Additional observations from a re-analysis of the deposited data

How the results depend on the processing

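Among 3 cows against 3, the diet comparison of the 3 miRNAs kept neither its sign nor its size. The edgeR log2 fold change turned negative on the log scale of limma (-0.10 for bta-miR-451, -0.28 for bta-miR-144 and -0.13 for bta-miR-486). With the replicate number as a block it was -0.13, -0.27 and -0.14. Same-numbered cows did not deviate together (correlations across miRNAs of -0.058, -0.048 and -0.019). Of the 3 control cows, 0 correlated best with the tested cow of its number. With 3 cows per group this cannot exclude a pairing by number, which was not tested further. In both groups the shares of all 3 miRNAs fell from cow 1 to cow 2 to cow 3. The standard error with the block was 0.237, 0.731 and 0.188, against 0.628, 0.886 and 0.530 without it. With each library left out in turn it ran from -1.08 to 1.06 for bta-miR-451, from -1.19 to 1.15 for bta-miR-144 and from -1.01 to 0.77 for bta-miR-486. DESeq2, RLE factors, no factors, no filter, filterByExpr and known miRNAs only kept a positive sign for each of the 3 and called none. The count of miRNAs past the threshold, 20, became 34 with limma, 13 with filterByExpr, 6 with known miRNAs only and 12 with the replicate block, and 17 to 23 with a library left out.

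The difference in summed share, 0.696 percentage points, was -0.0182 points of clean reads, -0.0548 as log2 of the share, and -0.967 to 1.58 with a library left out. On the linear scale the differences were 0.000226 for the ratio of bta-miR-144 to bta-miR-486, 0.536 for bta-miR-451 to bta-miR-23a and 0.223 for bta-miR-486 to bta-miR-23a, opposite in sign to the log2 ratios. With a library left out, the log2 ratios ran from -0.13 to 0.25 for bta-miR-451 to bta-miR-486, from -0.43 to 0.22 for bta-miR-144 to bta-miR-451, from -0.49 to 0.47 for bta-miR-144 to bta-miR-486, from -1.41 to 0.28 for bta-miR-451 to bta-miR-23a and from -1.28 to 0.0284 for bta-miR-486 to bta-miR-23a.

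The correlations stayed positive under every alternative run. Without the 2 farthest libraries, r was 0.940 for bta-miR-451 and bta-miR-144 (exact permutation test, p = 0.0833) and 0.863 for bta-miR-144 and bta-miR-486 (exact permutation test, p = 0.208), a design of 4 libraries. With a library left out, r of bta-miR-144 and bta-miR-486 ran from 0.852 to 0.973. With the group means removed, which was added after the data were seen, all 3 pairs kept their call. The cause of these changes was not tested beyond the libraries left out. Counts limit bta-miR-144 most, with 49 in tested cow 3.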
